A study of Homo sapiens with 21 samples.

Results

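The 40 genes described here encode the core machinery of autophagy, the receptors that hand it cargo, the receptors of ER-phagy and the transcription factors TFEB and TFE3. They were chosen by name, as the rows of the deposited count table whose Ensembl identifiers map to 40 listed symbols, and all 40 were found among the 60671 rows of the table. The symbols, and those of the other lists below, were chosen with earlier results of these data known. Counts set beside the shares of all genes are therefore a description and not a test of a list. RNA was sequenced from 21 samples in 7 groups of 3 replicates. OCI-AML3, a line of human acute myeloid leukaemia cells, was left untreated (0 h), given the solvent DMSO for 4 h or 24 h, or given tunicamycin at 1 μg/mL for 4 h or 24 h. HEK293T, a line derived from human embryonic kidney cells, received DMSO or the same dose of tunicamycin for 24 h. No other agent and no engineered allele is named for any group, and each tissue type is represented by a single cell line. Tunicamycin blocks N-glycosylation in the endoplasmic reticulum (ER), so that misfolded proteins build up there. The samples were made to study splicing under that stress, and the summed level of each gene is described here.

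Autophagy encloses cytoplasm in a double membrane, the autophagosome, which then fuses with the lysosome. The ULK1 kinase complex starts the process, the class III PI3-kinase complexes mark the membrane with the lipid PI3P, WIPI proteins read that mark, and a conjugation system resembling ubiquitin transfer attaches proteins of the ATG8 family (LC3 and GABARAP) to the growing membrane. Cargo receptors bind ATG8 proteins on that membrane, and ER-phagy receptors are ER membrane proteins that do so to deliver pieces of the ER for degradation.

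Of the 40 members, 4 passed both thresholds used below in at least 1 comparison with tunicamycin, and the sequences at their transcription starts are shown because these genes rose together in OCI-AML3 cells. Each runs from 250 bases before to 50 bases after a RefSeq start on GRCh38.p14, 5′ to 3′ on the gene's strand. CCPG1 lies at chr15:55408310-55408609 (minus strand), WIPI1 at chr17:68457447-68457746 (minus) and GABARAPL1 at chr12:10212627-10212926 (plus). RETREG1 has a start at chr5:16616948-16617247 (minus) and another, within the gene, at chr5:16508949-16509248 (minus).
CCPG1: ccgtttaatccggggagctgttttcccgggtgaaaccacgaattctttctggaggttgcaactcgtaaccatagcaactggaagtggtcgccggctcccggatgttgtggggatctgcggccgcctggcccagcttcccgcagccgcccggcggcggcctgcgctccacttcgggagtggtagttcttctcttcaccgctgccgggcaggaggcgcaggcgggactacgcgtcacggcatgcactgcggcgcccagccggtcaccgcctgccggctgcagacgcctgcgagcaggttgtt
RETREG1, outer start: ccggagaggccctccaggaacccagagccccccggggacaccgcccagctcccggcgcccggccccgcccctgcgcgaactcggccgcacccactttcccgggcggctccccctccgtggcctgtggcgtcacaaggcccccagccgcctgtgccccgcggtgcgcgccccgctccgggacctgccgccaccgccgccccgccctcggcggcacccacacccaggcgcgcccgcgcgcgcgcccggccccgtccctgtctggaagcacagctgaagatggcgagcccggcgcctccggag
RETREG1, inner start: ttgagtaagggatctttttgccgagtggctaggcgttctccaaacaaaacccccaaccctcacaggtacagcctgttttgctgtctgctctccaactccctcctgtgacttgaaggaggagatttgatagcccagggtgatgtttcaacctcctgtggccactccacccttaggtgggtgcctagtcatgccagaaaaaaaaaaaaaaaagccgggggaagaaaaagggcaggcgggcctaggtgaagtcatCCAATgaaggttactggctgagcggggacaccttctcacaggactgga
WIPI1: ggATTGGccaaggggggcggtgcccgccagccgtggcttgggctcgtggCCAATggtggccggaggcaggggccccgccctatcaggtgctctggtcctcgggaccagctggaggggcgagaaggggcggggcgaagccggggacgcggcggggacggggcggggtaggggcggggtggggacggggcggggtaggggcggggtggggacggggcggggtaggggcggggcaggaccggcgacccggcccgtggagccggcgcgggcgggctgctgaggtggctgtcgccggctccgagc
GABARAPL1: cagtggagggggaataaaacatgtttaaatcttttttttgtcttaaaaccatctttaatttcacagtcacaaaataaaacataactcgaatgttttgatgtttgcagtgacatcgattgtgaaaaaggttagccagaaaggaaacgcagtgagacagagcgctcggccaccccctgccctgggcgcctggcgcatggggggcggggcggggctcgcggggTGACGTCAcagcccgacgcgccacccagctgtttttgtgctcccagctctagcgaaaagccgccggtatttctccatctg
Capitals mark the letters of 6 motifs searched on both strands, of which the CCPG1 window and the outer window of RETREG1 held none. The cAMP response element TGACGTCA occurred in 1.85% of all 35116 promoters of this length and, among the 47 promoters matched for 36 members, only in that of GABARAPL1, 30 to 23 bases before the start. The CCAAT box, CCAAT, occurred in 34.6% of all promoters and in 13 of the 47, among them WIPI1 and the inner start of RETREG1. The letters TGATGNAA of the C/EBP-ATF composite element (3.62% of all promoters), TGACGTGG of the UPR element (0.729%) and the ER stress response element, which includes a CCAAT box (0.0769%), were in none of the 47 windows. GTCACGTG, an E-box of the kind bound by TFEB and TFE3, was in 2.40% of all promoters and in those of ATG3 and ATG14. A match is a description of the letters only, and the other 4 members had no entry.

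Libraries held 13838480 to 19961819 counts, and 14012 genes with at least 1 CPM, a read count scaled to the size of the library, in at least 8 libraries were tested, all 40 members among them. All 40 members had at least 1 CPM in each of the 15 OCI-AML3 libraries and 39 did in each of the 6 HEK293T libraries, the exception being MAP1LC3A. The cell lines could be told from their markers. Myeloid genes (SPI1, CD33, PTPRC, MPO, LYZ, CD44) did not exceed 0.403 CPM in HEK293T and reached up to 467 CPM in OCI-AML3, where MPO was lowest, from 0.980 CPM. Genes of HEK293T cells (PAX2, KRT8, KRT18, CDH2, LIN28B, NEFL) lay between 0 and 4.36 CPM in OCI-AML3 and between 0.960 and 115 CPM in HEK293T, each of the 6 higher in every HEK293T library than in any OCI-AML3 library, with PAX2 lowest (0.960 to 1.51 CPM, against 0). In all 3 comparisons with DMSO the 5 ER stress genes checked rose, HSPA5, the ER chaperone BiP, with log2 fold changes of 3.29 at 4 h and 3.52 at 24 h in OCI-AML3 and 2.7 in HEK293T. The median over the 5 was 3.29 at 4 h and 2.97 at 24 h in OCI-AML3, and 2.41 in HEK293T. By a test of the difference in OCI-AML3, the effect at 24 h was higher than that at 4 h for 1 of the 5. For 2 of the 5 it was lower, in both by more than 1 on the log2 scale. Levels are CPM scaled by TMM, shares of a library's messenger RNA, which give neither the number of cells nor the amount of RNA per cell. A share can also change because other transcripts of the library changed. Fold changes, standard errors (SE) and p-values are from edgeR's quasi-likelihood test, with p adjusted over all 14012 genes by the Benjamini-Hochberg method. A gene is said to have risen or fallen where the adjusted p was no higher than 0.05, and to be past both thresholds if its log2 fold change was also above 1 or below -1. The labels do not say whether replicates were separate cultures. The p-values rest on the spread between these samples, estimated over all 21 libraries of both cell lines.

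After 4 h of tunicamycin in OCI-AML3 cells, 19 of the 40 members rose and 4 fell, where 18.5% of all genes tested rose and 18.9% fell. Past both thresholds were 3 members, WIPI1, RETREG1 and CCPG1, all higher, against 4.92% of all genes in either direction. The median log2 fold change of the members was 0.24, against -0.02 for all genes. At 24 h, 18 members rose and 6 fell, against 23.5% and 27.7% of all genes. The number that fell was 3 without DMSO replicate 1, 2 or 3 or tunicamycin replicate 2 or 3, and 4 without tunicamycin replicate 1. Past both thresholds were 4 members (6.32% of all genes), the same 3 and GABARAPL1. The median was 0.14, against -0.01 for all genes. In HEK293T cells at 24 h, 10 members rose and 7 fell, against 12.6% and 13.1%, none passed both thresholds (2.13% of all genes), and the median was 0.07. With library sizes in place of TMM 7 rose and 8 fell, with 40.4% of the calls of all genes higher in place of 49.1%. With the HEK293T groups fitted alone 15 rose and 8 fell. WIPI1 in HEK293T cells, at 0.99, lay just under the threshold of 1. It was past that threshold in the fit of these groups alone (1.00) and without DMSO replicate 1 (1.10), DMSO replicate 3 (1.00) or tunicamycin replicate 3 (1.05). In all 3 comparisons 5 members rose, CCPG1, WIPI1, RTN3, ATG12 and OPTN, as did 4.45% of all genes, and 1 member, PIK3R4, fell in all 3, as did 3.85%. No member passed both thresholds downwards in any comparison.

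**Figure D1:**
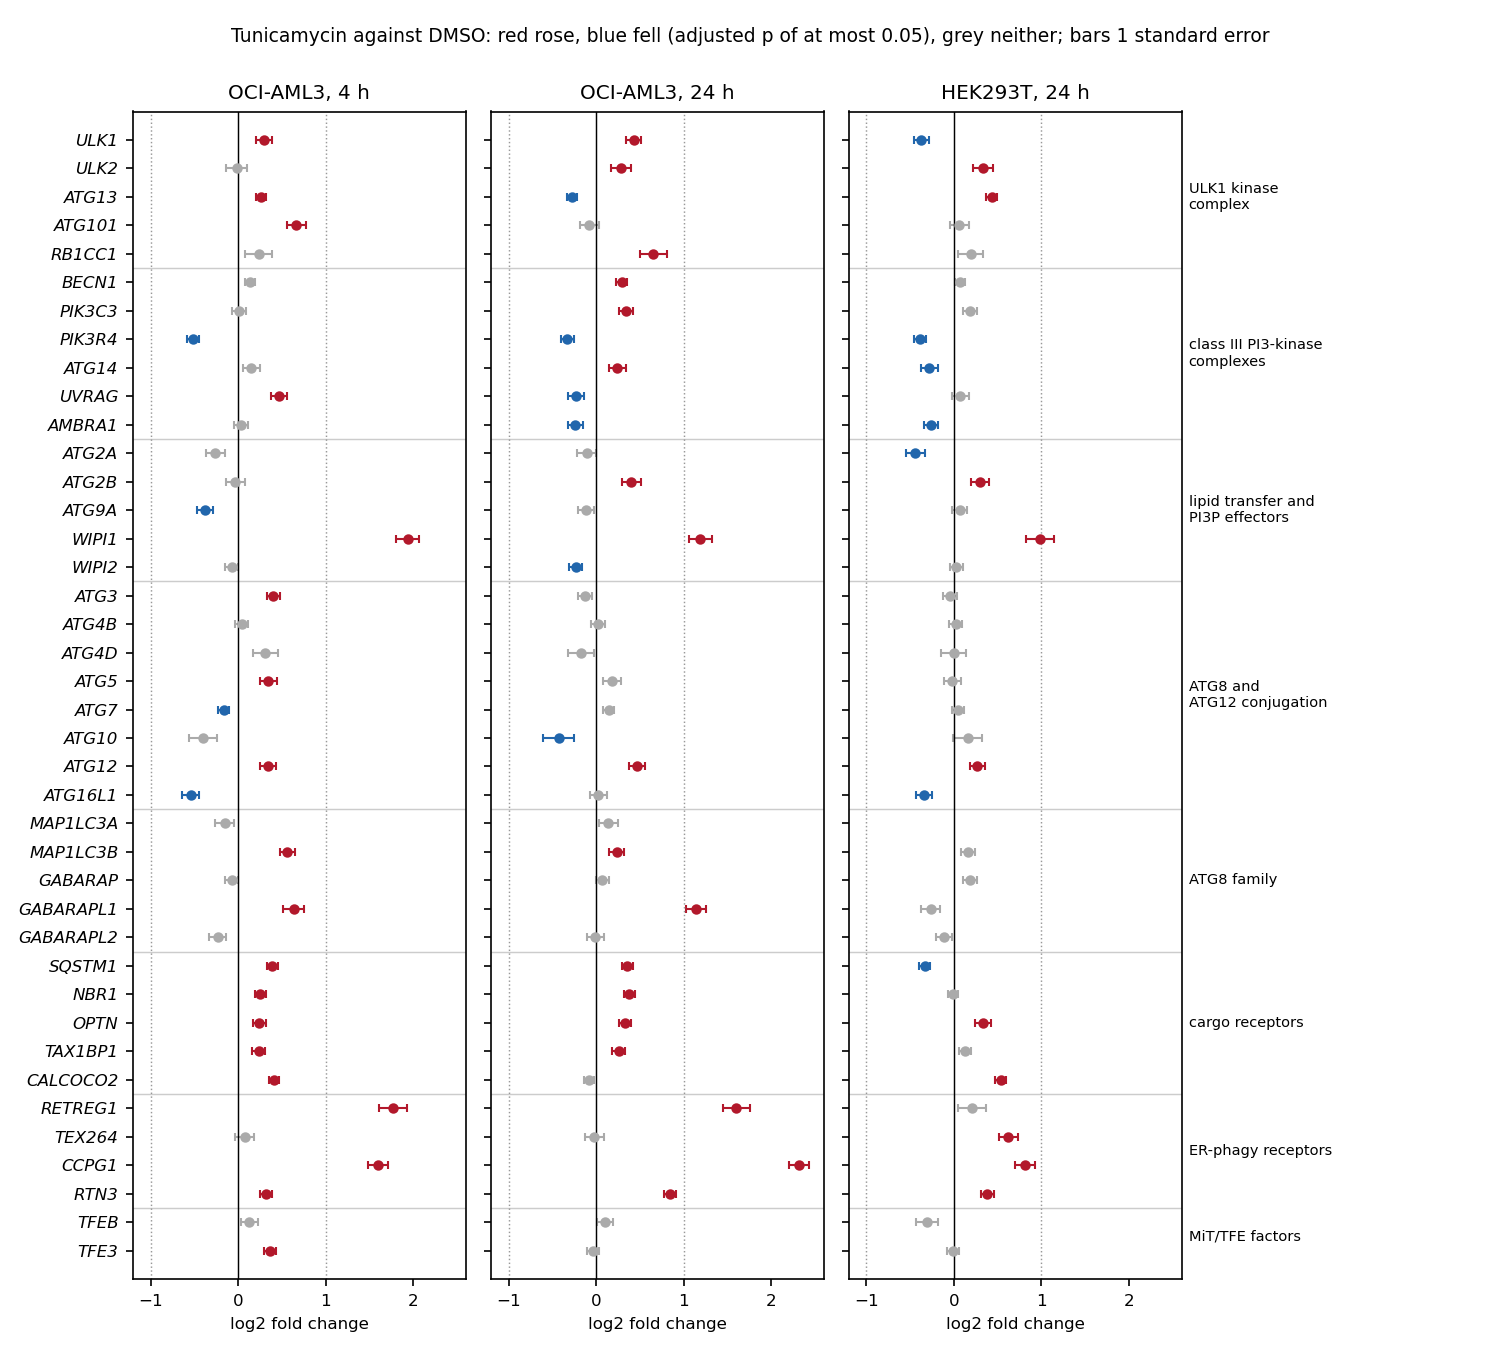
Log2 fold change of each member, tunicamycin against DMSO, with bars of 1 SE, in the 3 comparisons (columns) and grouped by role (rows). Red points rose, blue points fell and grey points did neither (adjusted p above 0.05), and MAP1LC3A is left out for HEK293T, where it had 1 count per group. CCPG1, RETREG1, WIPI1 and, at 24 h, GABARAPL1 stand to the right of the dotted line at 1 in OCI-AML3 cells.

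The ER-phagy receptors held 2 of the members past both thresholds, CCPG1 and RETREG1. In OCI-AML3 cells 3 of 4 rose at both times, CCPG1, RETREG1 and RTN3, with a median log2 fold change over the 4 of 0.96 at 4 h and 1.23 at 24 h. In HEK293T cells 3 of 4 rose as well, but these were CCPG1, TEX264 and RTN3, with a median of 0.50. Of all genes 18.5%, 23.5% and 12.6% rose in these comparisons, and their medians were -0.02, -0.01 and -0.01.

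CCPG1 encodes an ER membrane protein that binds both ATG8 proteins and the ULK1 complex subunit RB1CC1, and in OCI-AML3 cells it was the member with the largest fold change at 24 h. It had 51.4, 59.8 and 67.5 CPM in replicates 1 to 3 of DMSO at 4 h and 174, 171 and 198 CPM with tunicamycin. At 24 h the DMSO samples were at 59.5, 70.2 and 50.8 CPM and those with tunicamycin at 290, 288 and 326 CPM. Treated and control samples did not overlap at either time, and untreated cells had 69.0, 54.0 and 70.7 CPM. The log2 fold change was 1.60 (SE 0.11, adjusted p = 1.4e-10) at 4 h and 2.32 (SE 0.12, adjusted p = 2.8e-13) at 24 h, which is 3.04-fold and 5.0-fold. The effect at 24 h was larger by 0.72 (SE 0.16, adjusted p = 0.0013). In HEK293T cells CCPG1 had 35.9, 30.9 and 35.2 CPM with DMSO and 59.7, 62.2 and 57.0 CPM with tunicamycin, again without overlap (0.81, SE 0.12, adjusted p = 1.6e-05). That effect was smaller than in OCI-AML3 cells at 24 h by 1.51 on the log2 scale (SE 0.16, adjusted p = 5.1e-07). Exons of PIERCE2 and PIGB overlap CCPG1 on the other strand, with at most 2.27 and 22.4 CPM as group means in these comparisons. PIERCE2 rose at both times in OCI-AML3 cells (1.35 and 0.88) and PIGB at 24 h (0.37), and whether counting used the strand is not given in the sources used here.

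RETREG1 (FAM134B) encodes a receptor with a reticulon domain that bends ER sheets, and in OCI-AML3 cells it changed from a low level. It had 3.99, 3.20 and 3.83 CPM with DMSO at 4 h and 13.4, 11.9 and 12.4 CPM with tunicamycin, from 50 to 210 counts per library. At 24 h these were 6.96, 4.33 and 6.16 against 16, 19.6 and 17.4 CPM. Every treated sample was above every control, with 1.77 (SE 0.16, adjusted p = 8.2e-09) at 4 h and 1.60 (SE 0.15, adjusted p = 1.4e-08) at 24 h on the log2 scale, 3.41-fold and 3.04-fold. The effects at the 2 times differed by -0.17 (SE 0.22, adjusted p = 0.59). HEK293T cells held similar amounts with DMSO (3.85, 4.77 and 5.03 CPM), and with tunicamycin (5.86, 4.58 and 5.30 CPM) the samples overlapped them. The log2 fold change there was 0.20 (SE 0.16, adjusted p = 0.39), lower than in OCI-AML3 cells at 24 h by 1.40 (SE 0.22, adjusted p = 7.6e-05). The counts sum the transcripts from both starts shown above.

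RTN3, a reticulon of the tubular ER of which the long form acts as an ER-phagy receptor, was the most abundant of the 4. With DMSO and tunicamycin it had 162 ± 12 and 202 ± 12 CPM at 4 h, 185 ± 18 and 333 ± 5.8 CPM at 24 h, and in HEK293T cells 183 ± 2.0 and 239 ± 4.5 CPM (mean ± SD, n = 3). The groups did not overlap in any of these comparisons. Its log2 fold changes were 0.32, 0.85 and 0.38, and the effect at 24 h in OCI-AML3 cells exceeded both that at 4 h (by 0.53, SE 0.10, adjusted p = 0.00026) and that in HEK293T cells (by 0.47, given as -0.47 with SE 0.10 and adjusted p = 0.0012 for HEK293T minus OCI-AML3). Gene counts do not separate the long form from the short ones.

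TEX264, a receptor of ER tubule junctions, followed another pattern. In HEK293T cells the values were 44, 42.8 and 42.6 CPM with DMSO and 67.5, 66.9 and 64.7 CPM with tunicamycin, a log2 fold change of 0.62 (SE 0.11, adjusted p = 0.00021). In OCI-AML3 cells the groups overlapped at both times, with 0.07 at 4 h (adjusted p = 0.63) and -0.02 at 24 h, although TEX264 at 4 h passed the threshold without DMSO replicate 1 (0.27, adjusted p = 0.030, where the alternatives ran from 0.030 to 1.0). The effect in HEK293T cells was larger than that at 24 h in OCI-AML3 cells by 0.64 (SE 0.15, adjusted p = 0.0037). Both the lower effect on RETREG1 and the higher effect on TEX264 in HEK293T cells thus passed a test of the difference at 24 h. Exons of RAD54L2 overlap TEX264 on the same strand, at 34.3 to 66.6 CPM as group means. RAD54L2 had -0.01 at 4 h, -0.12 at 24 h and -0.01 in HEK293T cells, none past the threshold. Its part in the counts of TEX264 was not tested.

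**Figure D2:**
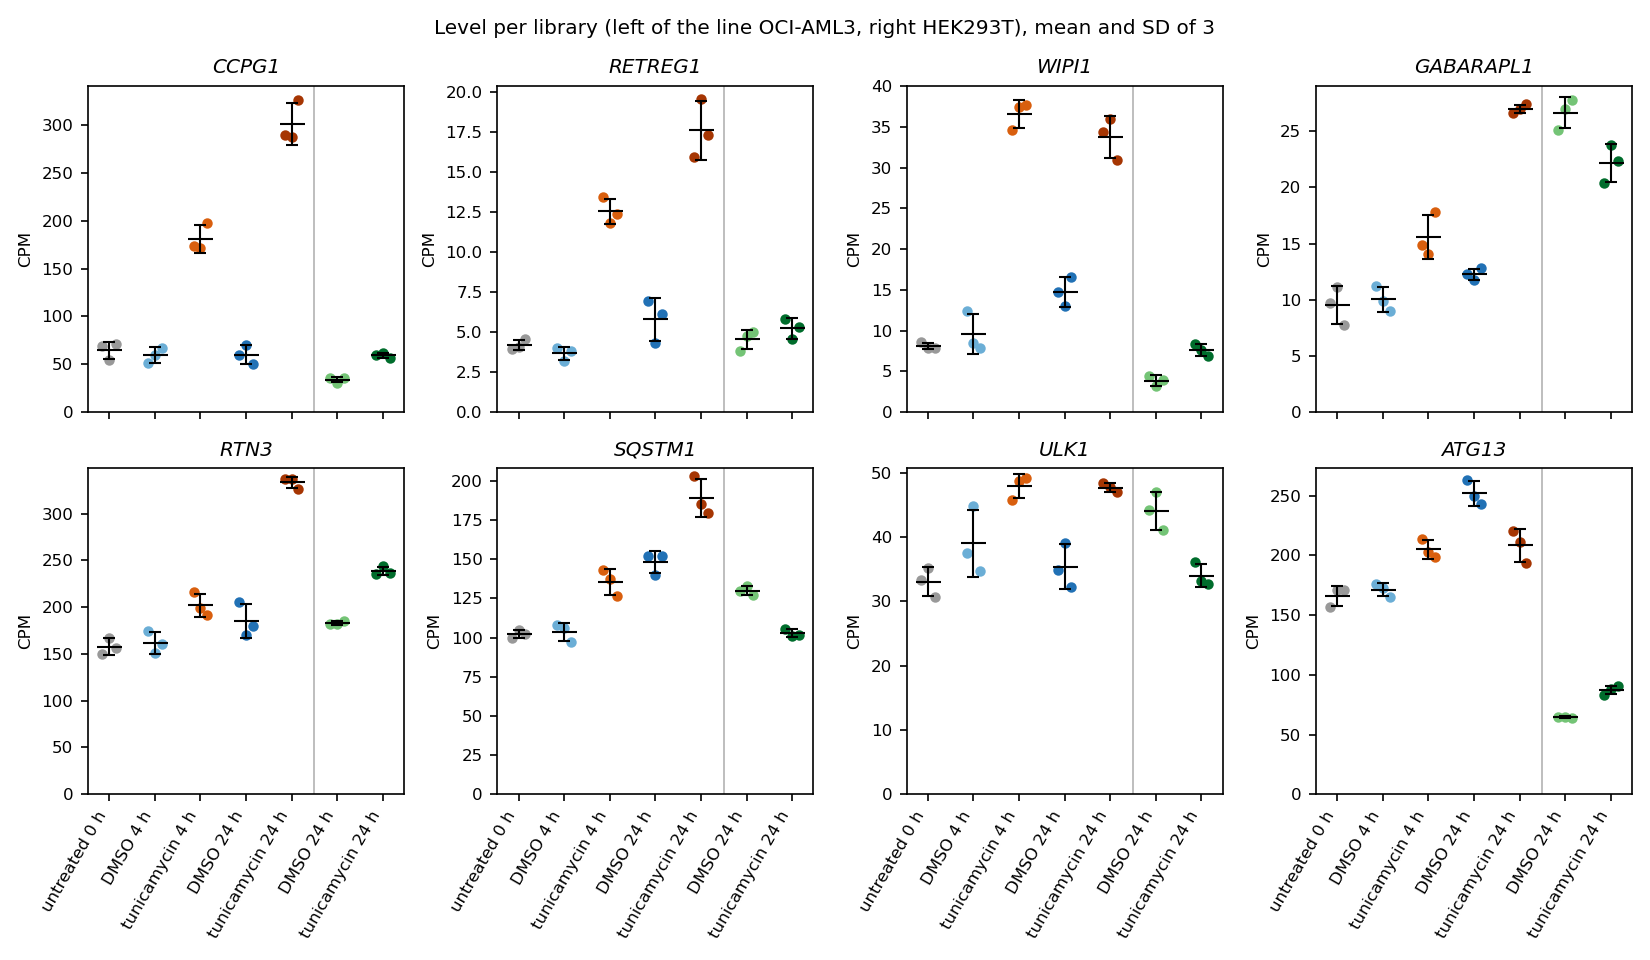
CPM in each library (points) with the mean and SD of 3 replicates (bars) for 8 members in the 7 groups, OCI-AML3 to the left of the grey line and HEK293T to the right. In OCI-AML3 cells CCPG1, RETREG1, WIPI1 and GABARAPL1 were higher in every sample with tunicamycin than in every DMSO sample of the same time, while in HEK293T cells every tunicamycin sample of GABARAPL1, SQSTM1 and ULK1 lay below every DMSO sample.

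Of the 5 genes of lipid transfer and PI3P binding, WIPI1 alone passed both thresholds. WIPI1 binds PI3P on the forming autophagosome. It had 12.4, 8.51 and 7.90 CPM with DMSO at 4 h and 34.6, 37.4 and 37.7 CPM with tunicamycin (1.94, SE 0.13, adjusted p = 7.8e-11, 3.83-fold), the largest rise among the members at that time. At 24 h it had 14.7, 13 and 16.6 against 34.4, 36.0 and 30.9 CPM (1.19, SE 0.13, adjusted p = 1.1e-07), and the effect was smaller than at 4 h by 0.74 (given as -0.74, SE 0.19, adjusted p = 0.0035). The treated samples held about as much at both times, and the DMSO samples rose between them, by 0.63 (SE 0.14, adjusted p = 0.0011). HEK293T cells had less WIPI1, 4.46, 3.16 and 3.93 CPM with DMSO and 8.33, 7.68 and 6.85 CPM with tunicamycin, without overlap (0.99, SE 0.16, adjusted p = 7.8e-05). The effects in the lines at 24 h differed by -0.21 (SE 0.21, adjusted p = 0.50). ARSG, a sulfatase gene on the other strand whose exons overlap those of WIPI1, also rose, from 5.48 to 11.8 CPM at 4 h, from 5.92 to 11.2 CPM at 24 h and from 4.03 to 8.05 CPM in HEK293T cells. How many reads of one gene were counted for the other was not tested.

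The other 4 of this group stayed under the log2 threshold of 1 in every comparison. ATG9A, the membrane protein that scrambles lipids of the vesicles from which the autophagosome grows, fell at 4 h from 48.5, 54.1 and 51.4 to 41.0, 38.7 and 38.8 CPM (-0.38, SE 0.09, adjusted p = 0.0018). The lipid transfer protein ATG2B rose at 24 h in OCI-AML3 cells (0.40) and HEK293T cells (0.29). Its close relative ATG2A fell in HEK293T cells, from 42.1, 43.0 and 38.0 to 30.5, 29.8 and 30.3 CPM (-0.44, SE 0.11, adjusted p = 0.0044). WIPI2 fell at 24 h in OCI-AML3 cells (-0.23, adjusted p = 0.014), but not without DMSO replicate 1, 2 or 3 or tunicamycin replicate 3, where it was between -0.20 and -0.10 (the latter without tunicamycin replicate 3), with adjusted p values of 0.0097 to 0.28 across alternatives. The rise of ATG2B in HEK293T cells (adjusted p = 0.038) was lost when any single library but DMSO replicate 3 was left out, and its adjusted p ranged from 0.00011 to 0.14.

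In the ATG8 family, whose members are the tags on the autophagosome membrane, GABARAPL1 and MAP1LC3B rose in OCI-AML3 cells at both times and GABARAP and GABARAPL2 did not. GABARAPL1 had 11.2, 9.86 and 8.98 CPM with DMSO at 4 h and 14.8, 14.1 and 17.8 CPM with tunicamycin (0.63, SE 0.12, adjusted p = 0.00020). At 24 h it had 12.3, 11.8 and 12.8 against 26.6, 27.0 and 27.4 CPM (1.14, SE 0.11, adjusted p = 3.7e-08, 2.20-fold). Treated and control samples did not overlap at either time. HEK293T cells with DMSO already held 25.1, 27.0 and 27.8 CPM, and those with tunicamycin had 20.4, 23.7 and 22.4 CPM, below every DMSO sample (-0.27, SE 0.10, adjusted p = 0.066). That value for GABARAPL1 was past the threshold in limma voom (adjusted p = 0.034), without TMM (0.040) and with the HEK293T groups fitted alone (0.0095), and reached 0.24 in another alternative. The effect in HEK293T cells was lower than that in OCI-AML3 cells at 24 h by 1.40 (given as -1.40, SE 0.15, adjusted p = 7.6e-07). The effect in OCI-AML3 cells was larger at 24 h than at 4 h by 0.50 (adjusted p = 0.022), which did not hold without tunicamycin replicate 1 (0.47) or 2 (0.43) at 4 h, with adjusted p from 0.0077 to 0.064 over the alternatives.

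MAP1LC3B, the LC3 gene most used as an autophagy marker, rose from 40.1 ± 2.7 to 59.3 ± 4.9 CPM (SD, n = 3) at 4 h (0.56, SE 0.08, adjusted p = 8.6e-06) and from 43.0 ± 4.6 to 50.6 ± 1.5 CPM at 24 h (0.23, adjusted p = 0.022). The call at 24 h did not hold without DMSO replicate 2 (0.19, adjusted p = 0.068), and its adjusted p ranged from 0.0032 to 0.10. HEK293T cells held 73.2 ± 4.6 and 81.8 ± 0.98 CPM (0.16, adjusted p = 0.15). Its near copy MAP1LC3B2 was listed below the filter, and a read that fits both is divided between them by the counting. MAP1LC3A was between 42.5 and 65.3 CPM in all OCI-AML3 libraries, with no change past the threshold. HEK293T cells held 0, 0 and 1 counts with DMSO and 0, 0 and 1 with tunicamycin. With 2226 counts in the DMSO samples of OCI-AML3 cells at 24 h against 1 in those of HEK293T cells, the ratio of levels was 3187, with an exact 95% interval of 571 to 125933 for counting error only.

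All 5 cargo receptors rose in OCI-AML3 cells at 4 h, where 18.5% of all genes did, and 4 of 5 did so at 24 h, where 23.5% of all genes did. These proteins tie ubiquitin-tagged or damaged cargo to ATG8 proteins. SQSTM1 (p62) had 104 ± 5.9 CPM with DMSO and 136 ± 8.3 CPM with tunicamycin at 4 h, and 148 ± 7.0 and 189 ± 12 CPM at 24 h (SD, n = 3), with log2 fold changes of 0.39 (SE 0.06, adjusted p = 3.6e-05) and 0.35 (SE 0.06, adjusted p = 7.0e-05). In HEK293T cells it fell from 130 ± 3.0 to 103 ± 2.4 CPM (-0.34, SE 0.06, adjusted p = 0.00036). In all 3 comparisons the groups did not overlap, and the difference between the lines at 24 h was -0.69 (SE 0.09, adjusted p = 6.3e-06). Exons of MGAT4B and MRNIP overlap SQSTM1 on the genome, at 41.1 to 97.6 CPM as group means, and both moved the same way as SQSTM1 at 24 h, by 0.36 and 0.34 in OCI-AML3 cells and by -0.36 and -0.33 in HEK293T cells. At 4 h, when SQSTM1 rose, MGAT4B fell (-0.25, adjusted p = 0.034) and MRNIP had 0.15 (adjusted p = 0.13). Their part in its counts was not tested.

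NBR1, a relative of SQSTM1, rose by 0.25 and 0.38 on the log2 scale in OCI-AML3 cells and was at -0.01 in HEK293T cells, a difference of -0.40 (SE 0.08, adjusted p = 0.0014) from OCI-AML3 cells at 24 h. CALCOCO2 (NDP52), which also recognizes invading bacteria, rose at 4 h (0.41, SE 0.06, adjusted p = 1.0e-05) and in HEK293T cells (0.53, SE 0.06, adjusted p = 7.7e-07) and had -0.08 at 24 h in OCI-AML3 cells. At 24 h the lines differed by 0.61 (SE 0.09, adjusted p = 1.6e-05). OPTN, a receptor in mitophagy, rose by 0.24, 0.33 and 0.33 in the 3 comparisons, and TAX1BP1 by 0.23 and 0.26 in OCI-AML3 cells. Of these, OPTN and TAX1BP1 lost the call at 4 h without DMSO replicate 2 (0.21 and 0.19, adjusted p = 0.063 and 0.075), TAX1BP1 also without tunicamycin replicate 3 (0.21, adjusted p = 0.060), and OPTN in HEK293T cells without DMSO replicate 2 (0.26, adjusted p = 0.064). Over the alternatives the highest adjusted p was 0.11 for both at 4 h and 0.064 for OPTN in HEK293T cells. NBR1 at 4 h lost its call only with no filter beyond 1 count, with adjusted p up to 0.087.

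Members of the ULK1 kinase complex moved in different directions. The kinase ULK1 had 37.5, 44.9 and 34.7 CPM with DMSO and 45.8, 48.8 and 49.2 CPM with tunicamycin at 4 h, and 34.9, 39.1 and 32.3 against 48.3, 47.8 and 47.0 CPM at 24 h. It rose at 4 h (0.30, SE 0.09, adjusted p = 0.011) and at 24 h (0.43, SE 0.09, adjusted p = 0.00046). It fell in HEK293T cells from 44.2, 47.1 and 41.1 to 36.1, 33.2 and 32.8 CPM (-0.37, SE 0.09, adjusted p = 0.0033), and the difference between the lines was -0.80 (SE 0.13, adjusted p = 7.4e-05). Without DMSO replicate 3 at 4 h, the call for ULK1 at that time was lost (0.22, adjusted p = 0.082, the highest over the alternatives, from 0.0012).

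ATG13, the regulatory subunit that brings ULK1 to its partners, rose at 4 h as ULK1 did and moved the other way from it at 24 h in both lines. It had 176, 172 and 165 CPM with DMSO and 214, 203 and 199 CPM with tunicamycin at 4 h (0.26, SE 0.06, adjusted p = 0.0014). At 24 h the DMSO samples were at 263, 249 and 243 CPM, and those with tunicamycin were lower, at 220, 211 and 193 CPM (-0.27, SE 0.06, adjusted p = 0.00059). In HEK293T cells it rose from 65.0, 64.7 and 63.8 to 83.3, 87.8 and 90.2 CPM (0.43, SE 0.06, adjusted p = 1.6e-05). Both the difference between the times (-0.54, SE 0.08, adjusted p = 4.9e-05) and that between the lines (0.71, SE 0.09, adjusted p = 2.9e-06) passed the threshold. With library sizes in place of TMM the fall at 24 h was -0.18, so that its size depends on scaling. HARBI1, whose exons overlap ATG13 on the other strand, had 0.26 at 4 h, -0.12 at 24 h and 0.27 in HEK293T cells. None of these values of HARBI1 passed the threshold, and its part in the counts of ATG13 was not tested.

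ATG101, which stabilizes ATG13, rose at 4 h from 33.8 ± 4.7 to 53.5 ± 3.5 CPM (0.67, SE 0.11, adjusted p = 3.6e-05), and at 24 h it had -0.07, a difference of -0.74 (SE 0.15, adjusted p = 0.00075). ENSG00000257663, whose exons overlap ATG101, rose at 4 h as well (0.58, adjusted p = 0.0055), from 9.66 to 14.4 CPM, and had -0.09 at 24 h and 0.09 in HEK293T cells. The scaffold RB1CC1 (FIP200) rose at 24 h from 46.9 ± 8.2 to 73.8 ± 8.6 CPM (0.65, SE 0.15, adjusted p = 0.0012). ULK2, a kinase related to ULK1, rose by 0.28 at 24 h in OCI-AML3 cells and by 0.33 in HEK293T cells (adjusted p = 0.045 and 0.040). For ULK2 the call in OCI-AML3 cells was lost without DMSO replicate 2 or tunicamycin replicate 3 (0.24 and 0.22) and that in HEK293T cells without any single library but tunicamycin replicate 2, with adjusted p from 0.0085 to 0.16 and from 0.0061 to 0.18.

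In the class III PI3-kinase complexes PIK3R4 (VPS15), the subunit that anchors the lipid kinase, fell in all 3 comparisons. It had 44.1, 51.1 and 48.4 CPM with DMSO and 32.8, 34.3 and 33.2 CPM with tunicamycin at 4 h (-0.52, SE 0.07, adjusted p = 4.0e-06). At 24 h it had 34.4, 36.1 and 33.1 against 27.6, 25.9 and 29.0 CPM (-0.33, SE 0.07, adjusted p = 0.00077), and in HEK293T cells 51.7, 56.0 and 53.9 against 40.1, 41.2 and 41.9 CPM (-0.39, SE 0.07, adjusted p = 0.00017). No treated sample reached the lowest DMSO sample in any comparison. The kinase PIK3C3 (VPS34) itself rose at 24 h in OCI-AML3 cells (0.34, adjusted p = 0.00089), as did BECN1, the scaffold of these complexes (0.29, adjusted p = 0.00051).

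UVRAG, which takes the place of ATG14 in the complex of later stages, rose at 4 h (0.47, SE 0.09, adjusted p = 0.00022) and was lower at 24 h (-0.23, adjusted p = 0.041), a difference of -0.69 (SE 0.13, adjusted p = 0.00023). The latter call was lost without any single library but DMSO replicate 2, with -0.14 without DMSO replicate 1 or tunicamycin replicate 3 and -0.13 without DMSO replicate 3, with adjusted p values for UVRAG of 0.021 to 0.31 across alternatives. AMBRA1, which holds BECN1 at the cytoskeleton, fell at 24 h in OCI-AML3 cells (-0.24) and in HEK293T cells (-0.27). AMBRA1 lost the call in OCI-AML3 cells without any single library but DMSO replicate 3 (-0.13 without DMSO replicate 2), and in HEK293T cells without DMSO replicate 1 or 2 or tunicamycin replicate 1 or 3, with adjusted p up to 0.26 and 0.12. ATG14, the subunit that directs the kinase to autophagosome formation, rose by 0.24 in OCI-AML3 cells at 24 h and fell by 0.28 on the log2 scale in HEK293T cells, and the difference of -0.52 (SE 0.13, adjusted p = 0.0061) held under all 20 alternatives although each of the effects of ATG14 alone was lost without single libraries (adjusted p up to 0.16 and 0.21). These were DMSO replicate 1 or 2 or tunicamycin replicate 3 in OCI-AML3 cells, and any but DMSO replicate 1 in HEK293T cells, where without DMSO replicate 3 it was -0.18.

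Among the 8 genes of ATG8 and ATG12 conjugation, 3 rose and 2 fell at 4 h in OCI-AML3 cells, and 1 rose and 1 fell in each comparison at 24 h. The shares of all genes were 18.5% and 18.9% at 4 h, 23.5% and 27.7% at 24 h in OCI-AML3 cells, and 12.6% and 13.1% in HEK293T cells, so that at 24 h the group held no more calls than genes at large. ATG12, the ubiquitin-like protein joined to ATG5, rose in all 3, by 0.34, 0.46 and 0.27 on the log2 scale (adjusted p = 0.0045, 0.00021 and 0.027), the last of which was lost without DMSO replicate 1 or 3 or tunicamycin replicate 1 or 3 (ATG12 in HEK293T cells, adjusted p from 0.00037 to 0.12). ATG3, the enzyme that transfers ATG8 proteins to lipid, rose at 4 h (0.40, SE 0.07, adjusted p = 0.00017) and had -0.13 at 24 h, a difference of -0.53 (SE 0.11, adjusted p = 0.00062). SLC35A5, whose exons overlap ATG3 on the other strand, rose by 0.45 at 4 h and also by 0.79 at 24 h and 0.58 in HEK293T cells, where ATG3 had -0.13 and -0.05. ATG5 rose at 4 h too (0.34, adjusted p = 0.0080).

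ATG16L1, which sets the place of conjugation on the membrane, fell at 4 h from 33.6, 35.5 and 30 to 22.5, 22.1 and 23.3 CPM (-0.54, SE 0.09, adjusted p = 7.4e-05). At 24 h its samples overlapped (26.5, 25.6 and 28.2 with DMSO, 28.1, 28.4 and 25.4 CPM with tunicamycin), and the effect differed from that at 4 h by 0.57 (SE 0.13, adjusted p = 0.0021). In HEK293T cells it fell from 45.7, 41.8 and 45.2 to 36.5, 35.1 and 32.8 CPM (-0.34, SE 0.09, adjusted p = 0.0057). ATG10, the enzyme that joins ATG12 to ATG5, had the most negative log2 fold change of the members in OCI-AML3 cells at 24 h, with 6.38, 6.79 and 9.47 CPM with DMSO and 5.27, 4.69 and 6.64 CPM with tunicamycin, which overlapped (-0.43, SE 0.17, adjusted p = 0.043). For ATG10 that call was lost in 10 of 14 alternatives, among them limma voom and the DESeq2 Wald test (adjusted p = 0.064 and 0.063), and without DMSO replicate 2 or 3 or tunicamycin replicate 1 or 2, with -0.19 without DMSO replicate 3 and adjusted p up to 0.41. Exons of RPS23, a ribosomal protein gene on the other strand, overlap ATG10 at a far higher level, 632 to 1434 CPM as group means, with log2 fold changes of 0.03, -0.19 and 0.18 (adjusted p = 0.88, 0.20 and 0.30), and its part in the counts of ATG10 was not tested. The fall of ATG7, the activating enzyme of both conjugation paths, at 4 h (-0.17, adjusted p = 0.046) was lost in 8 of 14, including without DMSO replicate 1 or 3 or tunicamycin replicate 2 or 3 (adjusted p up to 0.22). VGLL4, whose exons overlap ATG7 on the other strand, had a change of the same size at 4 h, from 77.9 to 69.4 CPM (-0.17, adjusted p = 0.047), with 0.10 at 24 h and 0.14 in HEK293T cells, and its part in the counts of ATG7 was not tested. Among members named earlier, overlapping genes on the other strand also rose with BECN1 (CNTD1, 0.36), NBR1 (ENSG00000267002, 0.44) and OPTN (CCDC3, 1.39, from 0.711 to 1.90 CPM) at 24 h in OCI-AML3 cells, and with TAX1BP1 (JAZF1, 1.01, from 3.39 to 6.79 CPM) at 4 h. PSME3, which also overlaps BECN1, fell at 24 h (-0.49), and CCDC3 fell in HEK293T cells (-0.58). The proteases ATG4B and ATG4D, which trim ATG8 proteins, passed the threshold in no comparison with tunicamycin, as did GABARAP, GABARAPL2, MAP1LC3A and TFEB, 6 members in all. Under alternatives some of them did pass it. GABARAPL2 at 4 h (-0.23, adjusted p = 0.063) was lower past the threshold in 4 of 14, among them without DMSO replicate 2 (-0.31) or 3 (-0.28), with adjusted p from 0.025 to 0.47. ATG4D at 4 h (0.31, adjusted p = 0.10) was higher in 2, among them without DMSO replicate 1 (0.44), with adjusted p from 0.033 to 0.27. GABARAP and MAP1LC3A at 24 h in OCI-AML3 cells were higher without tunicamycin replicate 3 (0.22 and 0.33, adjusted p = 0.011 and 0.0063, up to 0.86 and 0.52 in other alternatives), and GABARAP in HEK293T cells when those groups were fitted alone (0.20, adjusted p = 0.0039).

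TFEB and TFE3 are factors that switch on lysosome and autophagy genes and are controlled mostly by their entry into the nucleus, which RNA levels do not show. TFE3 rose at 4 h from 55.4 ± 2.1 to 71.5 ± 0.29 CPM (0.37, SE 0.07, adjusted p = 0.00012, n = 3) and had -0.03 at 24 h and -0.02 in HEK293T cells. TFEB had 0.13, 0.11 and -0.31 (adjusted p = 0.31, 0.34 and 0.11). Of the 12 members known from work on starved mouse fibroblasts to depend on the stress factors ATF4 or CHOP (SQSTM1, NBR1, ATG7, ATG16L1, MAP1LC3B, ATG12, ATG3, BECN1, GABARAPL2, ATG10, GABARAP and ATG5), 6 rose and 2 fell at 4 h, 5 rose and 1 fell at 24 h, and 1 rose and 2 fell in HEK293T cells, with median log2 fold changes of 0.19, 0.16 and 0.02. The shares of all genes that rose and fell were 18.5% and 18.9%, 23.5% and 27.7%, and 12.6% and 13.1%. No gene of this list passed both thresholds.

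The time course was compared next. The effect of tunicamycin on OCI-AML3 cells differed between the times for 15 members, higher at 24 h for 7 and lower for 8, where 15.1% of all genes were higher and 20.3% lower. Members whose rise was larger at 24 h were CCPG1 (by 0.72), RTN3 (0.53) and GABARAPL1 (0.50). The difference of 0.57 for ATG16L1 is that between a fall at 4 h (-0.54) and 0.03 at 24 h. WIPI1 (-0.74), ATG101 (-0.74), UVRAG (-0.69), ATG13 (-0.54), ATG3 (-0.53), CALCOCO2 (-0.49) and TFE3 (-0.40) were those whose effect was smaller or turned. PIK3C3 (0.33), ATG2B (0.44) and ATG7 (0.31) were also higher at 24 h, and MAP1LC3B (-0.33) lower. Of these, MAP1LC3B lost the call in 15 of 20 alternatives, among them without any single library but DMSO or tunicamycin replicate 3 at 4 h or DMSO replicate 2 at 24 h (adjusted p from 0.013 to 0.14). ATG2B lost it without DMSO replicate 2 or 3 or tunicamycin replicate 1 or 2 at 4 h, or DMSO replicate 3 or tunicamycin replicate 3 at 24 h (0.32 to 0.44, adjusted p from 0.0041 to 0.098), and PIK3C3 without DMSO replicate 3 or tunicamycin replicate 1 at 4 h (0.30 and 0.31, adjusted p from 0.0045 to 0.091). ATG7 lost the call only with no filter beyond 1 count, with adjusted p up to 0.072. The split between higher and lower depends on the scaling. With library sizes in place of TMM 11 members were higher and 7 lower, and of all genes past the threshold 56.2% were higher in place of 42.6%.

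Some of these genes also changed without tunicamycin. Between 4 h and 24 h with DMSO 14 members rose and 7 fell, against 21% and 21.6% of all genes. OPTN rose most (0.92, SE 0.07, adjusted p = 2.3e-09), from 76.9 ± 5.1 to 146 ± 8.4 CPM, followed by RETREG1 (0.66), WIPI1 (0.63), ATG13 (0.56), TFEB (0.56), TEX264 (0.53) and SQSTM1 (0.51). ATG2B (-0.61), PIK3R4 (-0.47), ATG10 (-0.45) and ATG5 (-0.40) were lowest. The DMSO samples were also the controls of the comparisons with tunicamycin, so that these differences are not independent of those above. Between untreated cells and DMSO at 4 h edgeR called no member and 0% of all genes, and 2 members had an unadjusted p under 0.05. limma voom and the DESeq2 Wald test called 0 and 16 of all genes there and 0 members.

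At 24 h the effect of tunicamycin differed between HEK293T and OCI-AML3 cells for 12 members, higher in HEK293T for 3 and lower for 9, against 15.9% and 10.9% of all genes. Those higher were ATG13, TEX264 and CALCOCO2. Those lower were CCPG1, GABARAPL1, RETREG1, ULK1, SQSTM1, ATG14, RTN3, NBR1 and ATG16L1. The 5 ER stress genes checked above also had smaller effects in HEK293T cells, past the threshold for 3 of them. Their median difference was -0.64, against 0.02 for all genes. Whether the smaller effects on members go back to a weaker stress response in HEK293T cells was not tested. ATG16L1 (-0.37, adjusted p = 0.037) lost the call without HEK293T tunicamycin replicate 2 (-0.38) or 3 (-0.33), with adjusted p from 0.0076 to 0.090. Among members past the threshold in both lines at 24 h, 9 moved the same way, as did 14.8% of all genes tested, and 4 (ATG13, ATG14, SQSTM1 and ULK1) moved in opposite ways, as did 2.24%. Of these 13, the calls of ATG14, AMBRA1, ULK2, ATG2B, ATG12 and OPTN in at least 1 line were lost without single libraries, as given above. Without TMM 3 members were higher and 12 lower, and the median over all genes moved from 0.02 to -0.09, with 41.0% of the calls of all genes higher in place of 59.3%.

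**Figure D3:**
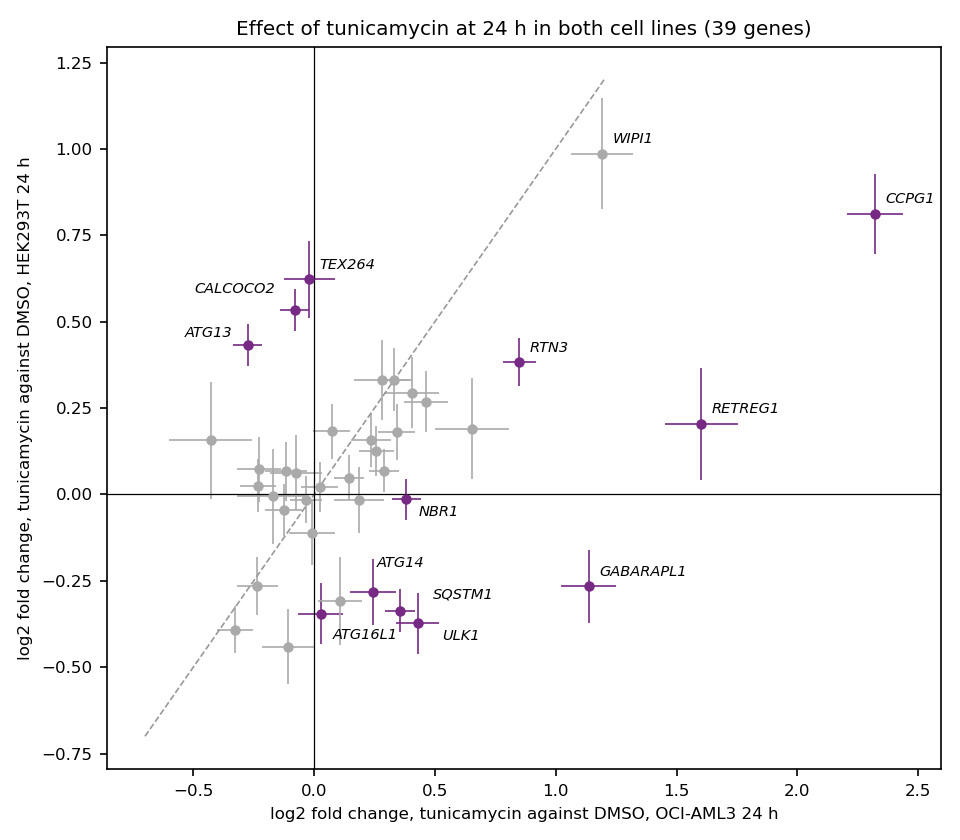
Log2 fold change at 24 h, tunicamycin against DMSO, in OCI-AML3 (horizontal) and HEK293T cells (vertical) for 39 members, MAP1LC3A being left out, with bars of 1 SE. Purple points are the 12 members whose effects differed (adjusted p no higher than 0.05), and the dashed line marks equal effects. CCPG1, RETREG1 and GABARAPL1 lie far below the line, and WIPI1, in grey, lies close to it.

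The lines also differed in their levels without tunicamycin. With DMSO at 24 h, 2 members were past both thresholds upwards in HEK293T cells and 8 downwards, against 20.3% and 24.9% of all genes. ATG2B (1.2) and GABARAPL1 (1.12) were the higher ones. Lower were MAP1LC3A, OPTN (-3.62, SE 0.09), TFEB (-2.39, SE 0.11), ATG13 (-1.97), WIPI1 (-1.93), TEX264 (-1.71), CALCOCO2 (-1.63) and GABARAP (-1.25). OPTN had 146 ± 8.4 CPM in OCI-AML3 and 11.8 ± 1.4 CPM in HEK293T cells, and TFEB 20.6 ± 1.7 and 3.94 ± 0.16 CPM (SD, n = 3). RETREG1 (-0.35, adjusted p = 0.057) and RTN3 (-0.02, adjusted p = 0.83) did not pass the threshold between the lines.

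Levels can be compared between genes per length. Divided by the merged exons of GENCODE release 44, GABARAP was highest in untreated OCI-AML3 cells at 66.0 CPM per kb, followed by MAP1LC3A (47.3), RTN3 (27.2), ATG13 (23.7) and GABARAPL2 (22.8), and RETREG1 was lowest (0.273). CCPG1 stood at rank 22 of 40 in untreated cells (7.35 CPM per kb), and at rank 5 after 24 h of tunicamycin (34.3 CPM per kb), where RETREG1 was still at rank 39 (1.14 CPM per kb). In HEK293T cells GABARAP (36.5), RTN3 (31.6) and GABARAPL2 (27.7) led with DMSO, and CCPG1 went from rank 31 to rank 21 with tunicamycin. With the longest transcript as the length, CCPG1 went from rank 23 to 8 in OCI-AML3 cells.

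**Figure D4:**
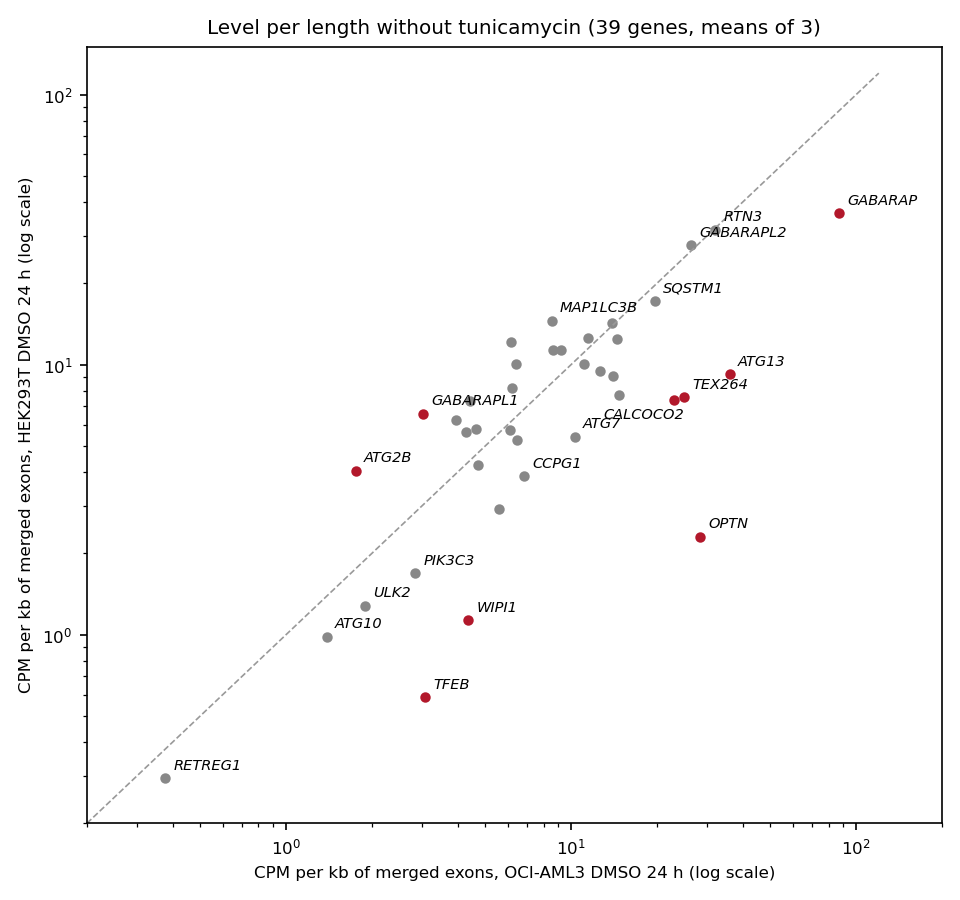
Mean CPM per kb of merged exons with DMSO at 24 h in OCI-AML3 (horizontal) and HEK293T cells (vertical), both axes on a log scale, for 39 members, MAP1LC3A being left out with 1 count in HEK293T. Red points are members past both thresholds between the lines, and the dashed line marks equal levels. OPTN and TFEB lie farthest below the line.

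Other genes of the pathway were read from 7 lists holding 83 matched genes, of which 79 were tested. Of these, 16 rose and 20 fell at 4 h, 22 rose and 18 fell at 24 h, and 18 rose and 5 fell in HEK293T cells, with medians of 0.00, 0.06 and 0.00 on the log2 scale. Of all genes 18.5% rose and 18.9% fell at 4 h, 23.5% and 27.7% at 24 h, and 12.6% and 13.1% in HEK293T cells. Of 9 other ER-phagy genes, 6 rose and none fell at 24 h in each line, and 4 rose and 2 fell at 4 h. UFM1, a ubiquitin-like modifier used in ER-phagy, rose by 0.58, 0.61 and 0.84, and its ligase UFL1 by 0.51, 0.46 and 0.66. SEC62, an ER translocon protein that is also a receptor in recovery from ER stress, rose by 0.29, 0.57 and 0.34. CALCOCO1 fell at 4 h (-0.29, adjusted p = 0.035) and rose at 24 h in OCI-AML3 cells (0.85, adjusted p = 1.7e-07). In HEK293T cells CALCOCO1 had 0.24 (adjusted p = 0.069), lower than at 24 h in OCI-AML3 cells by 0.61 (given as -0.61, SE 0.13, adjusted p = 0.0019).

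Of 10 tested genes of autophagosome formation, 4 rose and 2 fell at 4 h, 4 rose and none fell at 24 h, and 3 rose and none fell in HEK293T cells, where of all genes 18.5% and 18.9%, 23.5% and 27.7%, and 12.6% and 13.1% did. TMEM41B, a lipid scramblase of the ER, rose by 1.54 (SE 0.09), 1.48 (SE 0.10) and 0.51 (SE 0.09), which in OCI-AML3 cells was past both thresholds at both times. WDR45, a relative of WIPI1 and WIPI2, rose by 0.72, 0.67 and 0.88, and NRBF2, a subunit of the ATG14 complex, by 0.67 and 0.31 in OCI-AML3 cells, with -0.07 in HEK293T cells. Of 14 genes of fusion with the lysosome, 2 rose and 4 fell at 4 h, 3 rose and 4 fell at 24 h, and 1 rose and 2 fell in HEK293T cells. These counts stand against 18.5% and 18.9% of all genes at 4 h, 23.5% and 27.7% at 24 h, and 12.6% and 13.1% in HEK293T cells. VAMP8, a fusion protein, fell by 0.64 and 0.66 on the log2 scale in OCI-AML3 cells, and VPS18 fell in all 3 comparisons (-0.71, -0.33 and -0.39). STX17, the fusion protein of the autophagosome, rose at 24 h in OCI-AML3 cells (0.69, adjusted p = 2.9e-05).

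Of 10 other receptors of selective autophagy, 1 rose and 3 fell at 4 h, none rose and 4 fell at 24 h, and 1 rose and none fell in HEK293T cells. Of all genes 18.5% rose and 18.9% fell at 4 h, 23.5% and 27.7% at 24 h, and 12.6% and 13.1% in HEK293T cells. In OCI-AML3 cells the shares of all genes that fell were not far below those of these receptors. BNIP3, a mitophagy receptor, fell to -1.28 (SE 0.10, adjusted p = 7.4e-10) at 24 h in OCI-AML3 cells, and PHB2 to -0.43. Of 28 lysosome genes, 2 rose and 6 fell at 4 h, 6 rose and 8 fell at 24 h, and 7 rose and 2 fell in HEK293T cells, with medians of -0.03, 0.05 and 0.07. Beside 18.5% and 18.9%, 23.5% and 27.7%, and 12.6% and 13.1% of all genes, the lysosome genes were near the background in their falls at 4 h and in both directions at 24 h in OCI-AML3 cells. The proteases CTSB (0.68) and CTSD (0.56) and the sulfamidase SGSH (0.63) led the rises at 24 h in OCI-AML3 cells, and GLA (-0.91), NEU1 (-0.49) and ATP6V0D1 (-0.37) the falls. Of 8 regulators and relatives of TFEB and TFE3, 3 rose and 3 fell at 4 h, 3 rose and 2 fell at 24 h, and none rose and 1 fell in HEK293T cells. The shares of all genes were, in the same order, 18.5% and 18.9%, 23.5% and 27.7%, and 12.6% and 13.1%. The related factor MITF rose at 24 h (0.86, adjusted p = 0.0006) and the Rag GTPase RRAGD fell to -1.06 (SE 0.16, adjusted p = 1.3e-05).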

How the data were processed

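RNA was sequenced from poly(A)-selected libraries of 21 samples. The authors deposited unscaled RSEM expected counts per gene (Ensembl release 101), made after trimming by seqtk and STAR alignment to GRCh38. RSEM shares out reads that fit several genes, so that 3.54 to 4.22% of values per library were not whole (tolerance 1e-09). Whether strand was used is not given in the sources used here. Here the estimated counts were rounded, 60671 rows were reduced to the 14012 that reached 1 CPM in 8 or more of 21 libraries, and edgeR 4.0.16 (R 4.3.3) was used with TMM factors, 7 group means and the quasi-likelihood F-test. Tests were two-sided. Libraries of 13838480 to 19961819 counts put a floor of 3 counts at 0.150 to 0.217 CPM, which covers counting error only. The interval for MAP1LC3A is Clopper-Pearson's.

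Alternatives were limma voom (version 3.58.1), the Wald test of DESeq2 (version 1.42.0), its size factors or plain library sizes for TMM, other filters, the compared groups alone, a replicate block, and leaving out each library. Members with all libraries and full statistics in the text are those past both thresholds and the 3 largest rises and falls of each comparison with tunicamycin, and up to 3 genes each way were named from other lists. The members and lists were chosen with earlier results of these data known.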

Additional observations from a re-analysis of the deposited data

Results flagged for a closer look

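For 27 values the effect of tunicamycin differed between groups by a test of the difference itself (edgeR, adjusted p of at most 0.05), and no cause was tested. Between the times in OCI-AML3 cells, as the log2 effect at 24 h minus that at 4 h, the differences above 0 were 0.72 for CCPG1, 0.57 for ATG16L1, 0.53 for RTN3, 0.50 for GABARAPL1, 0.44 for ATG2B, 0.33 for PIK3C3 and 0.31 for ATG7. Those below 0 were -0.74 for WIPI1, -0.74 for ATG101, -0.69 for UVRAG, -0.54 for ATG13, -0.53 for ATG3, -0.49 for CALCOCO2, -0.40 for TFE3 and -0.33 for MAP1LC3B.

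Between the cell lines at 24 h, as the effect in HEK293T minus that in OCI-AML3 cells, the differences above 0 were 0.71 for ATG13, 0.64 for TEX264 and 0.61 for CALCOCO2. Those below 0 were -1.51 for CCPG1, -1.40 for GABARAPL1, -1.40 for RETREG1, -0.80 for ULK1, -0.69 for SQSTM1, -0.52 for ATG14, -0.47 for RTN3, -0.40 for NBR1 and -0.37 for ATG16L1. ATG13, ATG16L1, CALCOCO2, CCPG1, GABARAPL1 and RTN3 appear in both sets, which share the OCI-AML3 samples of 24 h.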

How the results depend on the processing

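Of 91 calls for members in the 3 comparisons and the 2 differences between effects, 67 held under every alternative run and none changed direction. Of 109 values that did not pass the threshold, 37 changed sign in at least 1 alternative, none of them past the threshold with the changed sign, and 31 passed the threshold in at least 1 alternative with the sign they had. Without single libraries these were, at 4 h, RB1CC1 (0.42, without DMSO replicate 3), BECN1 (0.18), ATG2A (-0.31), ATG4D and TEX264 (DMSO replicate 1), and ATG10 (-0.49 and -0.47) and GABARAPL2 (DMSO replicate 2 or 3), and, at 24 h in OCI-AML3 cells, ATG9A (-0.20) and ATG5 (0.27) without tunicamycin replicate 1, MAP1LC3A and GABARAP without tunicamycin replicate 3, and ATG7 (0.20 to 0.21) without either of these or DMSO replicate 2 or 3. In HEK293T cells no value did so without a single library. The difference between the times did so for RB1CC1 (0.63) and PIK3R4 (0.28) without DMSO replicate 1 at 4 h, ATG4D without that library or tunicamycin replicate 1 at 24 h (-0.57 and -0.64), ATG9A without the same DMSO library or, at 24 h, DMSO replicate 2 or tunicamycin replicate 2 or 3 (0.33 to 0.37), and, at 24 h, BECN1 (0.25) and GABARAPL2 (0.36) without DMSO replicate 3, NBR1 (0.22) without DMSO replicate 1, and MAP1LC3A (0.47) and GABARAP (0.28) without tunicamycin replicate 3. The difference between the lines did so for BECN1 without any of 8 libraries (-0.34 to -0.25), for ATG2A without OCI-AML3 DMSO or tunicamycin replicate 2 (-0.49 and -0.45), and for TFEB without OCI-AML3 DMSO replicate 1 or tunicamycin replicate 2 or 3 (-0.54 to -0.48). The number of members past both thresholds in OCI-AML3 cells was 3 at 4 h and 4 at 24 h in every alternative. In HEK293T cells it was 1 in place of 0 when fitted with the compared groups alone and 0 to 1 with single libraries left out, the member being WIPI1. The number that fell at 24 h in OCI-AML3 cells, 6, was 3 with the DESeq2 Wald test, with DESeq2 size factors, without TMM and with the filter of 1 CPM in at least 3 libraries, 2 with the compared groups alone and 3 to 4 without single libraries. The other totals stayed within 1.5 times, but the members whose effect was higher at 24 h than at 4 h numbered 7, and 11 without TMM. At this depth a floor of 3 counts is 0.150 to 0.217 CPM.

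The main test used no pairing by replicate number. Of 18 correlations of same-numbered libraries, 3 were above 0.1 (-0.139 to 0.199). They are of deviations from means of 3 libraries and were not tested against pairs with different numbers. They therefore cannot show whether the replicates were paired. With the replicate block, 19 members rose and 4 fell at 4 h, 18 rose and 6 fell at 24 h, and 10 rose and 7 fell in HEK293T cells, the same counts as without it, while 16 and 13 effects differed between times and lines in place of 15 and 12.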
